A study of Mus musculus with 15 samples.

Results

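RNA levels of 10 genes that encode transcription factors of innate lymphoid cells (Gata3, Rora, Id2, Bcl11b, Tcf7, Irf4, Ets1, Nfil3, Hhex and Gfi1) were followed across 15 RNA sequencing libraries of 3 immune cell types sorted from mouse lung. The 10 genes were taken by name as rows of the deposited expression table, which holds 21110 gene rows, and all 10 were found. All mice were of the C57BL6/J strain, and the papain mice had received papain, a cysteine protease of papaya used as a model allergen, through the nose over 3 consecutive days at 50 ug per mouse. Natural helper cells, also called group 2 innate lymphoid cells, were sorted as lineage-negative cells that stained for CD25, IL7Ra and Thy1.2. They gave 1 library of papain mice labelled 3'UTRKO (which gene this knockout concerns is not given in the labels), 2 libraries of papain mice and 2 of naive mice. Basophils (FceR1+ CD49b+ c-kit-) gave 2 papain and 2 naive libraries. Eosinophils (SiglecF+, Gr1 low, without autofluorescence) gave 2 CD11c+ and 2 CD11c- libraries of papain mice and 2 libraries of naive mice. The labels give no age or sex and do not say whether libraries of a group come from separate animals or pools, so the p-values speak only for the spread among these libraries, which may be technical. Values are FPKM, fragment counts scaled to transcript length and library size, rounded to whole numbers, and their read depth is unknown.

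Innate lymphoid cells are lymphocytes without rearranged antigen receptors that sit in tissues such as the lung and answer alarm cytokines from the epithelium. The group that makes IL-5 and IL-13 is built in the mouse by a small set of transcription factors. ID2, a helix-loop-helix protein without a DNA-binding region, blocks E proteins and is needed by all innate lymphoid cells. NFIL3, TCF-1 (the product of Tcf7) and GATA3 act in their progenitors, and RORalpha, BCL11B, GFI1 and continued GATA3 shape and maintain the type 2 branch. ETS1 and IRF4 are factors that many lymphocytes share, and HHEX is a homeobox factor of blood and endothelial progenitors. Several of these genes are also used by myeloid cells, which the basophil and eosinophil libraries allow to be compared.

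Markers of the sorted cell type were present in each group, and many libraries also carried markers of other cells. All 10 markers listed for natural helper cells (Il7r, Thy1, Il2ra, Icos, Il1rl1, Klrg1, Cxcr6, Il5, Il13 and Areg) were above 0 in all 5 natural helper cell libraries, with a summed level of 1854 to 4960 FPKM. Their summed level was 326 to 545 FPKM in basophils and 80 to 238 FPKM in eosinophils. The 9 basophil markers summed to 520 and 1451 FPKM in papain basophils, against 5205 and 4185 FPKM in naive basophils. They summed to 758 and 388 FPKM in naive eosinophils, so papain basophil library 1 lay below naive eosinophil library 1. Their sum was 181 to 341 FPKM in papain eosinophils and 19 to 33 FPKM in natural helper cells. Epithelial markers summed to 20422 and 34568 FPKM in papain basophils and 6631 and 8708 FPKM in naive basophils. That sum was 711 to 9831 FPKM in eosinophils and 110 to 4377 FPKM in natural helper cells. The papain basophil library 1 stood apart from its replicate: of the 10 natural helper cell markers it held more of 7, among them Icos (114 FPKM, where library 2 held 0) and Cxcr6 (105 FPKM, where library 2 held 2), and less of 3, Areg (32 and 157 FPKM), Il13 (20 and 71 FPKM) and Il1rl1 (27 and 33 FPKM). The 7 T cell markers summed to 138 to 258 FPKM in natural helper cells, 128 and 7 FPKM in papain basophils, 64 and 3 FPKM in naive basophils, 81 to 83 FPKM in CD11c+ eosinophils, 17 and 90 FPKM in CD11c- eosinophils, and 2 and 1 FPKM in naive eosinophils. The eosinophil markers summed to 1025 and 1046 FPKM in CD11c+, 798 and 762 FPKM in CD11c- and 587 and 2588 FPKM in naive eosinophils, against 137 FPKM or less in all other libraries. Among them Epx, a granule peroxidase that defines eosinophils, was listed at 0 in 4 of the 6 eosinophil libraries, and Prg2 had 86 and 1519 FPKM in the naive ones. Neutrophil markers summed to 6431 to 16535 FPKM in the same 6 libraries and to 3175 and 7484 FPKM in papain basophils. Their sum was 264 and 531 FPKM in naive basophils and 14 to 171 FPKM in natural helper cells. The 7 fibroblast markers summed to 148 to 320 FPKM in natural helper cells, against 11 and 3 FPKM in naive basophils and 2 and 5 FPKM in naive eosinophils, and 5 of the 7 were called higher in naive natural helper cells than in both. The part of these markers in the members' values was not tested. In sorted bulk samples, fewer cells of a type and less RNA per cell cannot be told apart.

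The first question was which of the factors set natural helper cells apart before any treatment. Gata3, Rora, Bcl11b and Gfi1 were higher in naive natural helper cells than in both other naive cell types, and Tcf7 was higher than in naive eosinophils. The other members did not follow that pattern, and Hhex was lower than in basophils. Across 14257 genes tested in limma, 9.64% were above both other naive types and 4.12% below both. Among the 10 members, 4 were above both and 0 below both.

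Gata3, the zinc finger factor that directs type 2 lymphocytes, had 168 and 273 FPKM in naive natural helper cells, against 2 and 1 FPKM in naive basophils. It was listed at 0 in both naive eosinophil libraries. No library of another cell type came near: over all 15 libraries, natural helper cells spanned 168 to 273 FPKM and the other cells 0 to 7 FPKM. The log2 difference of naive natural helper cells from naive basophils was 6.46 ± 0.60 (SE, limma adjusted p = 0.000192), and the adjusted p against naive eosinophils was 4.162e-05.

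Rora, which encodes the nuclear receptor RORalpha that lung natural helper cells need to develop in the mouse, had 158 and 115 FPKM in naive natural helper cells, against 11 and 14 FPKM in naive basophils. It was listed at 0 in both naive eosinophil libraries. The groups did not overlap, and basophils held a low level that eosinophils did not show. The log2 difference from naive basophils was 3.34 ± 0.62 (limma adjusted p = 0.00623), and the adjusted p against naive eosinophils was 7.286e-05. Naive basophils were in turn above naive eosinophils for Rora (limma adjusted p = 0.00432).

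Bcl11b, a zinc finger factor of T cells and type 2 innate lymphoid cells, had a low level with a clear split by cell type. It had 16 and 12 FPKM in naive natural helper cells, against 1 and 0 FPKM in naive basophils, and was listed at 0 in both naive eosinophil libraries. The log2 difference from naive basophils was 3.39 ± 0.68 (limma adjusted p = 0.00905), which was not called without naive basophil library 2 (adjusted p = 0.0722) or without naive natural helper cell library 1 (0.0619). The adjusted p against naive eosinophils was 0.00291.

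Gfi1, a zinc finger repressor, had 18 and 16 FPKM in naive natural helper cells, against 3 and 2 FPKM in naive basophils and 1 FPKM in each naive eosinophil library. All 5 natural helper cell libraries (12 to 24 FPKM) lay above the 10 other libraries (1 to 3 FPKM). The log2 difference was 2.38 ± 0.38 from naive basophils (limma adjusted p = 0.00313) and 3.17 ± 0.38 from naive eosinophils (adjusted p = 0.000367).

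Tcf7, which encodes TCF-1, a factor of early innate lymphoid progenitors and T cells, had 61 and 58 FPKM in naive natural helper cells. It had 20 and 0 FPKM in naive basophils and 1 and 0 FPKM in naive eosinophils. The natural helper cell libraries were the highest, but the naive basophil libraries lay far apart. The log2 difference was 3.72 ± 1.41 from naive basophils (limma adjusted p = 0.0965, and 0.0168 without naive basophil library 1). It was 5.42 ± 1.41 from naive eosinophils (adjusted p = 0.0198), a call that was lost without any of the 4 libraries compared (0.0632 to 0.102).

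**Figure D1:**
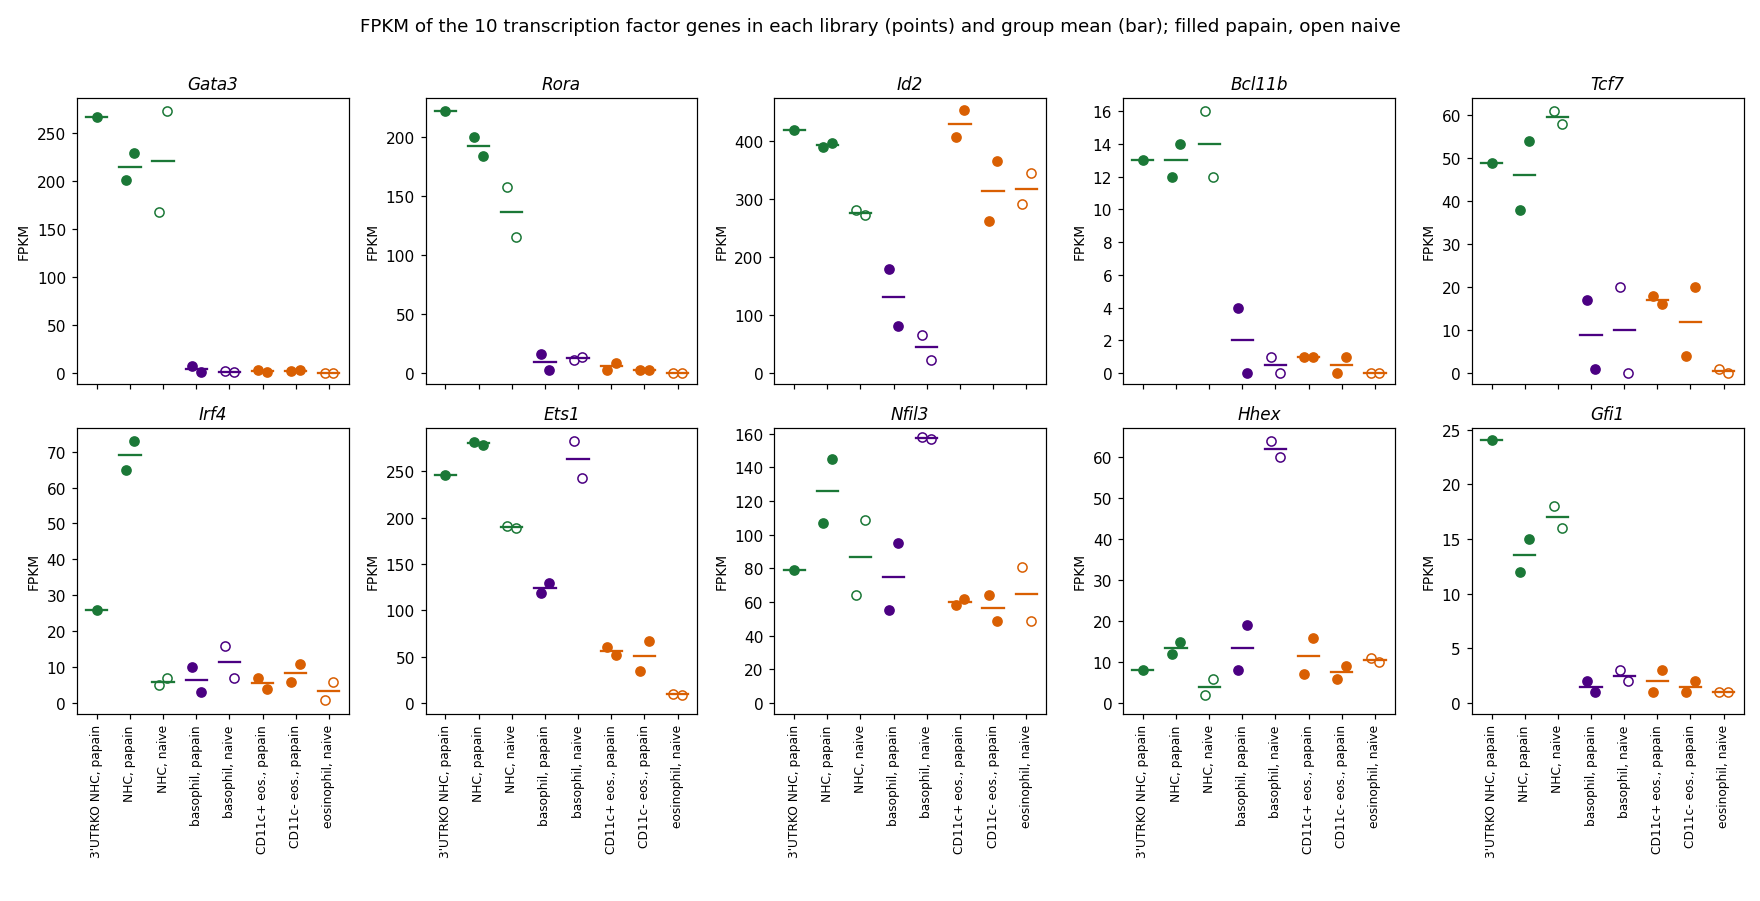
FPKM of each of the 10 genes (vertical axis, linear, a scale for each gene) in every library (points) with the group mean (bar), by cell type and papain state along the horizontal axis; NHC stands for natural helper cells and eos. for eosinophils. Gata3 (168 to 273 FPKM), Rora, Bcl11b, Tcf7 and Gfi1 stand above all other libraries in the 5 natural helper cell libraries, Irf4 does so in the papain ones, and Hhex and Nfil3 are highest in naive basophils.

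Id2, Ets1, Nfil3 and Hhex were higher by value in naive basophils or naive eosinophils than in naive natural helper cells. Id2 had 281 and 272 FPKM in naive natural helper cells, 66 and 23 FPKM in naive basophils and 291 and 345 FPKM in naive eosinophils. Naive eosinophil libraries were slightly above naive natural helper cell libraries by value, and naive basophils were far below both. The log2 difference of naive natural helper cells was 2.79 ± 0.48 from naive basophils (limma adjusted p = 0.00431) and -0.20 ± 0.48 from naive eosinophils (adjusted p = 0.852). Naive basophils were below naive eosinophils by -2.99 ± 0.48 on the log2 scale (limma adjusted p = 0.00369). The highest level of Id2 over all libraries was in CD11c+ eosinophils (407 and 453 FPKM).

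Ets1, the founding member of the ETS family, split the cells differently. It had 191 and 189 FPKM in naive natural helper cells and 283 and 243 FPKM in naive basophils, against 10 and 9 FPKM in naive eosinophils. Natural helper cells and basophils were both high, and naive eosinophils were the lowest group. The log2 difference of naive natural helper cells from naive eosinophils was 4.19 ± 0.26 (limma adjusted p = 1.329e-05) and that of naive basophils from naive eosinophils was 4.65 ± 0.26 (adjusted p = 2.524e-05). Between naive natural helper cells and naive basophils it was -0.46 ± 0.26 (adjusted p = 0.241, and 0.038 after median-ratio scaling).

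Hhex and Nfil3 were highest in naive basophils. Hhex had 2 and 6 FPKM in naive natural helper cells, against 64 and 60 FPKM in naive basophils and 11 and 10 FPKM in naive eosinophils. The log2 difference of naive natural helper cells from naive basophils was -3.78 ± 0.52 (limma adjusted p = 0.00134), and naive basophils were above naive eosinophils by 2.45 ± 0.52 (adjusted p = 0.0139, and 0.0557 to 0.0754 without single libraries). Nfil3, a basic leucine zipper factor that also regulates cytokine genes in myeloid cells, had 64 and 109 FPKM in naive natural helper cells, 158 and 157 FPKM in naive basophils and 81 and 49 FPKM in naive eosinophils. Nfil3 was present at 49 FPKM or more in all 15 libraries, and its order after naive basophils runs through groups whose libraries overlap. Naive basophils were above naive eosinophils for Nfil3 by 1.31 ± 0.35 (limma adjusted p = 0.0409), a call lost without each of the 4 libraries (0.0535 to 0.23). The difference of naive natural helper cells from naive basophils was not called (-0.91 ± 0.35, adjusted p = 0.107). The naive basophil libraries also held B cell markers, at a sum of 174 and 326 FPKM. That sum was 50 and 38 FPKM in naive eosinophils and 4 and 3 FPKM in naive natural helper cells. Of the 7 B cell markers, 6 were called lower in naive natural helper cells than in naive basophils. The part of these markers in the values of Ets1, Hhex and Nfil3 was not tested.

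Irf4, a factor that lymphocytes raise on activation, was low in every naive group. It had 5 and 7 FPKM in naive natural helper cells, 16 and 7 FPKM in naive basophils and 1 and 6 FPKM in naive eosinophils. None of the 3 naive comparisons was called for Irf4 (limma adjusted p = 0.167 to 0.473).

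In counts, naive natural helper cells were called higher than naive basophils for 5 of 10 members and lower for 1, where 13.6% and 6.96% of all genes were (20.6% in either direction). The median log2 difference of the members was 2.58, against 0.34 for all genes tested. Against naive eosinophils 6 of 10 members were called higher and 0 lower, where 16.5% and 11.6% of all genes were (28.1% in either direction). Between naive basophils and naive eosinophils 4 of 10 were called higher (Rora, Ets1, Nfil3 and Hhex) and 1 lower (Id2), where 5.3% and 8.66% of all genes were (14% in either direction).

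RefSeq (GRCm38.p6, another build than the mm9 of the submitters' notes) gives 11 promoter windows, from 250 bases before to 50 bases after the gene start, for 9 of the 10 members. They are shown because Tcf7, Gfi1 and Nfil3 hold letters that RORalpha or the E proteins opposed by ID2 are known to bind. The ROR half-site AGGTCA, searched on both strands, was present in promoters of 2 of these 9 members (Tcf7 and Nfil3) and in 16.26% of 32851 promoters. The E-box CAGGTG was in those of 2 of the 9 (Tcf7 and Gfi1) and in 20.21% of promoters. These counts are near the shares of all promoters and do not mark the members out. In the windows below, capitals mark the match, read here on the strand of the gene, where it appears as the reverse complement.
Tcf7, chr11:52282591-52282620, minus strand: cttccggtgcccTGACCTttataggagtaa
Nfil3, chr13:52981034-52981063, minus strand: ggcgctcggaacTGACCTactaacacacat
Gfi1, chr5:107725830-107725859, minus strand: caggcgggtcccCACCTGctgcagagcatc
The match starts 13 bases before the gene start in Tcf7, 12 in Nfil3 and 42 in Gfi1. The ETS site CCGGAAGT was found in Tcf7 (3.89% of promoters). The GATA site AGATAA (11.18% of promoters), the TCF site CTTTGAT (3.73%), an IRF site of the GAAA repeat type (3.44%) and the NFIL3 site TTANNTAA (6% of promoters) were in none of the members' windows. The ETS match runs into the first letters of the Tcf7 window shown and does not overlap the ROR half-site. These are letters in a short window, with no binding measured.

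The same question was asked among papain mice, where Irf4 was called as well. Of the 10 members, 7 were called higher in papain natural helper cells than in papain basophils (Gata3, Rora, Id2, Bcl11b, Irf4, Ets1 and Gfi1) and 0 lower, where 7.18% and 12.6% of all genes were (19.7% in either direction). Against papain CD11c- eosinophils 6 were called higher (Gata3, Rora, Bcl11b, Irf4, Ets1 and Gfi1) and 0 lower, where 8.93% and 7.67% of all genes were (16.6% in either direction). The members' median log2 difference was 2.60 from papain basophils and 2.53 from CD11c- eosinophils, while the median of all genes was 0 in both. The fit pools 1 spread over groups whose libraries differed unequally. The median absolute log2 difference between libraries was 0.585 in papain basophils, 0.222 in CD11c- eosinophils and 0.138 in papain natural helper cells. Fits of only the groups compared called 1 member against papain basophils and 6 against CD11c- eosinophils.

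Gata3 had 201 and 229 FPKM in papain natural helper cells, against 7 and 1 FPKM in papain basophils and 2 and 3 FPKM in CD11c- eosinophils. Rora had 200 and 184 FPKM in papain natural helper cells, against 16 and 3 FPKM in papain basophils and 3 FPKM in each CD11c- eosinophil library. The groups did not overlap for either gene. The log2 difference from papain basophils was 5.75 ± 0.60 for Gata3 (limma adjusted p = 0.000523) and 4.55 ± 0.62 for Rora (adjusted p = 0.00179). Without single libraries they ran from 4.75 to 6.75 for Gata3 and from 3.50 to 5.59 for Rora, lowest without papain basophil library 2 and highest without papain basophil library 1, and both calls held. Gfi1 differed by 2.56 ± 0.38 from papain basophils (limma adjusted p = 0.00278) and by the same value from CD11c- eosinophils (adjusted p = 0.00214).

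Irf4 had 65 and 73 FPKM in papain natural helper cells, against 10 and 3 FPKM in papain basophils and 6 and 11 FPKM in CD11c- eosinophils. The papain natural helper cell libraries were the highest of all 15. The log2 difference was 3.40 ± 0.68 from papain basophils (limma adjusted p = 0.0114) and 2.93 ± 0.68 from CD11c- eosinophils (adjusted p = 0.0189). Without single libraries the adjusted p ran from 0.00862 to 0.0784 against basophils (above 0.05 without papain basophil library 2 or either papain natural helper cell library) and from 0.0483 to 0.138 against CD11c- eosinophils (above 0.05 without CD11c- library 1 or either papain natural helper cell library). Id2 and Ets1 were above papain basophils by 1.69 ± 0.48 (adjusted p = 0.0382) and 1.17 ± 0.26 (adjusted p = 0.0163). Both calls were lost without papain basophil library 2 (0.219 and 0.061) or either papain natural helper cell library. Bcl11b, at 2.64 ± 0.68 (adjusted p = 0.0286), also lost its call in those 3 fits (0.11 to 0.13). Against CD11c- eosinophils Bcl11b (3.30 ± 0.68, adjusted p = 0.0108) lost its call without CD11c- library 1 (0.0951) or either papain natural helper cell library (0.0591 and 0.0721).

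**Figure D2:**
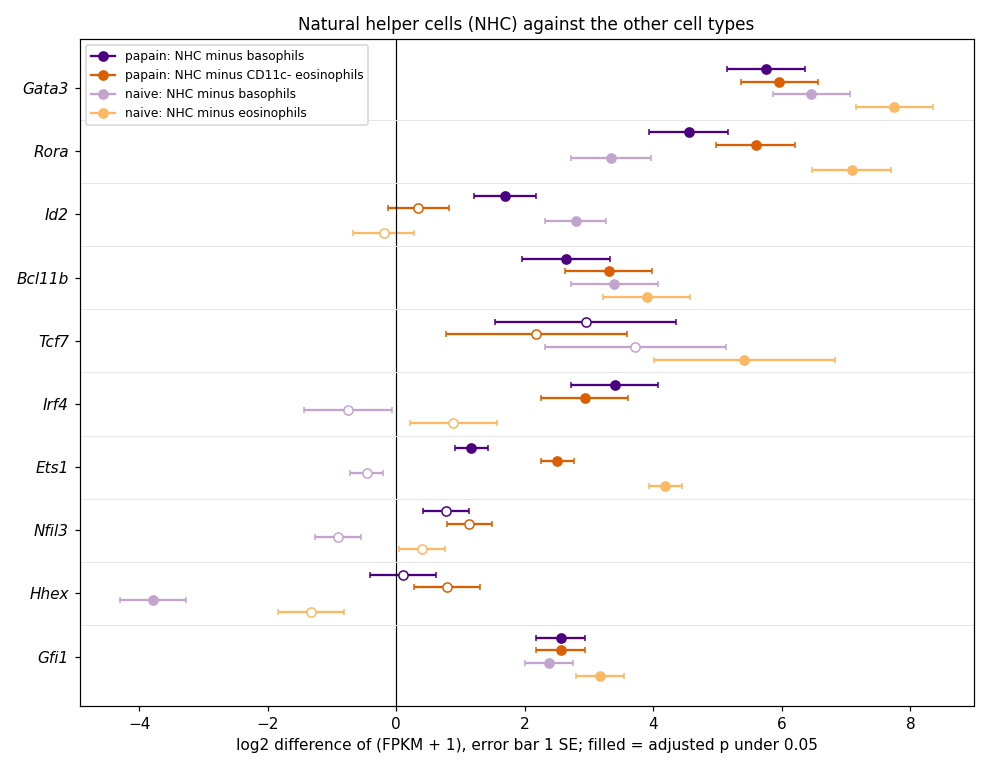
Log2 differences of (FPKM + 1) between natural helper cells and the other cell types for each gene (horizontal axis; points with 1 SE), in papain and naive mice; filled points passed an adjusted p of 0.05. Gata3, Rora, Bcl11b and Gfi1 lie to the right of 0 and are filled in all 4 comparisons, Irf4 is filled in the papain comparisons alone, Ets1 is open against naive basophils alone, and Hhex lies at -3.78 against naive basophils. Where a gene is listed at 0 in naive eosinophils (Gata3, Rora, Bcl11b), the position depends on the pseudocount.

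Gata3 and Gfi1 have close relatives that were high in cell types where the member was low, a pattern that the relatives of Id2 and Nfil3 did not share throughout. Gata2, the GATA factor of mast cells and basophils, had 0 and 1 FPKM in papain and 1 and 0 FPKM in naive natural helper cells. It had 82 and 378 FPKM in papain basophils, against 664 and 845 FPKM in naive basophils. Gata1, the GATA factor of eosinophils and red cell precursors, was listed at 0 in all 5 natural helper cell libraries and had 1 to 3 FPKM in basophils and 29 to 40 FPKM in eosinophils. The level of each of the 3 GATA genes thus peaked in a different cell type. Naive natural helper cells were below naive basophils for Gata2 by -9.05 ± 0.69 (limma adjusted p = 6.297e-05), and naive basophils were below naive eosinophils for Gata1 by -3.28 ± 0.23 (adjusted p = 6.583e-05).

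The Gfi1 relative Gfi1b, a repressor of the erythroid and megakaryocytic lines, was listed at 0 in all 5 natural helper cell libraries. It had 4 and 17 FPKM in papain basophils, against 26 and 25 FPKM in naive basophils, and 25 to 31 FPKM in papain eosinophils, against 83 and 69 FPKM in naive eosinophils. The libraries high in Gfi1 were thus those where Gfi1b was listed at 0. Id1, an ID protein like Id2, was lower in papain natural helper cells (2 and 3 FPKM) than in papain basophils (39 and 123 FPKM, log2 difference -4.35 ± 0.51, limma adjusted p = 0.000942). Id1 was also high in CD11c- eosinophils (mean 59.5 FPKM), where Id2 was high too (mean 314 FPKM). Hlf, a leucine zipper factor whose DNA motif is shared with the repressor NFIL3, had 54 FPKM in the 3'UTRKO library, 121 and 81 FPKM in papain and 36 and 52 FPKM in naive natural helper cells, against 0 to 3 FPKM in all other libraries. Hlf was above papain basophils by 5.14 ± 0.44 (limma adjusted p = 0.000309), while Nfil3 itself was not called in that comparison (0.78 ± 0.35, adjusted p = 0.163). Id3, another ID gene, had 41 and 22 FPKM in naive natural helper cells, against 9 and 6 FPKM in naive basophils and 1 and 3 FPKM in naive eosinophils.

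Of the 16 relatives listed for the members, 4 were called higher and 6 lower in naive natural helper cells than in naive basophils (13.6% and 6.96% of all genes), and 6 higher and 3 lower than in naive eosinophils (16.5% and 11.6% of all genes). After papain 1 was higher and 6 lower than in papain basophils (7.18% and 12.6% of all genes), and 2 were higher and 4 lower than in CD11c- eosinophils (8.93% and 7.67% of all genes). Their median log2 difference was -0.10 from naive basophils and -0.80 from papain basophils.

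**Figure D3:**
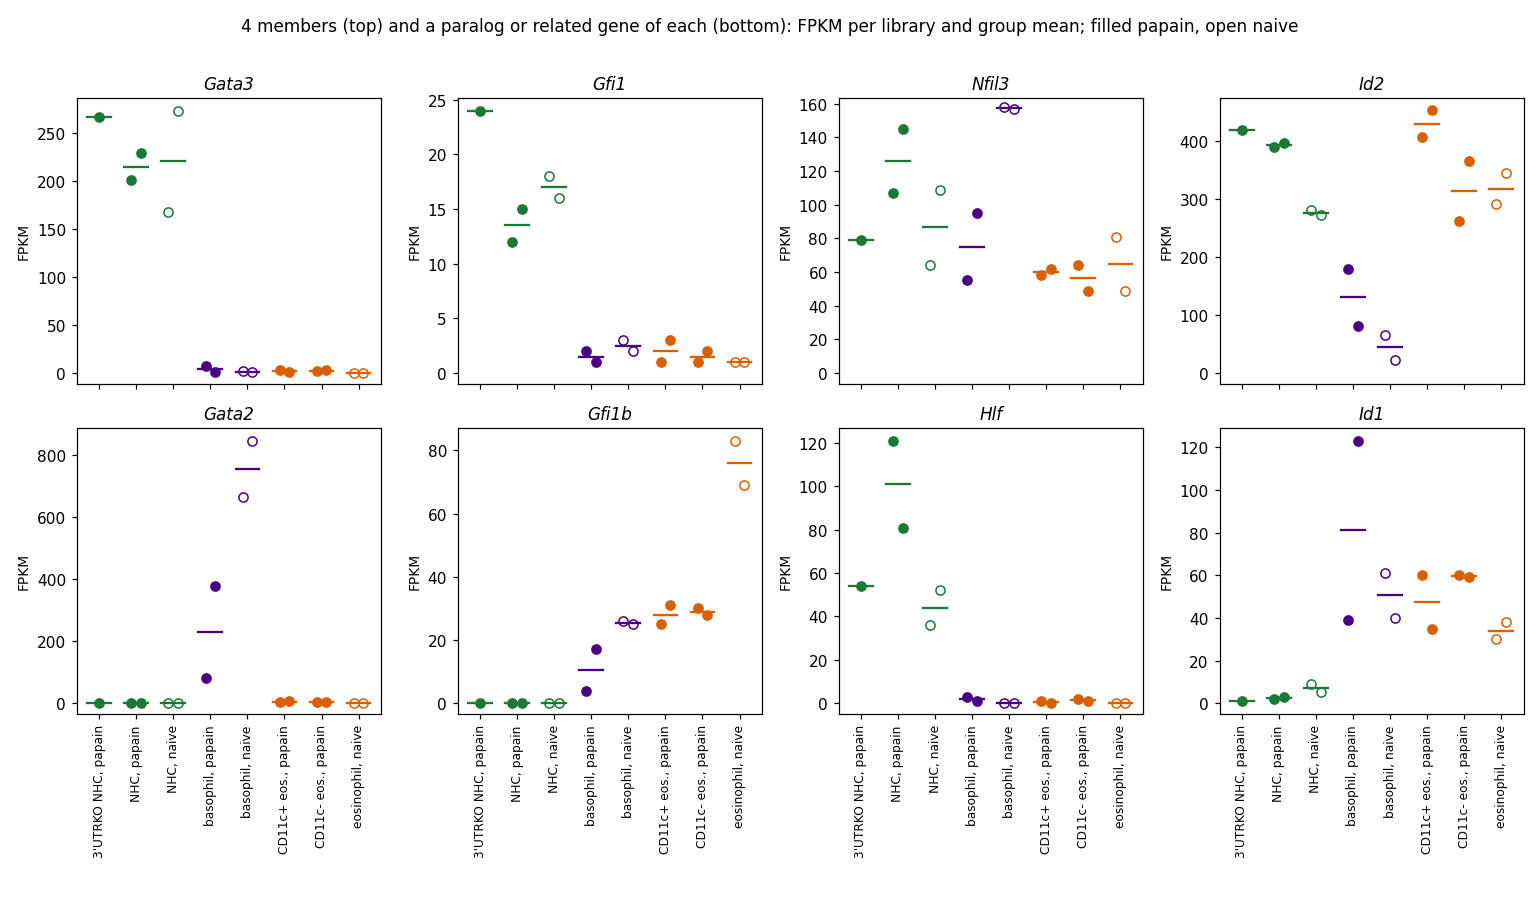
FPKM in every library (points) and group mean (bars) of Gata3, Gfi1, Nfil3 and Id2 (top row) and of a relative of each, Gata2, Gfi1b, Hlf and Id1 (bottom row), with groups along the horizontal axis. Gata2 reaches 664 and 845 FPKM in naive basophils where Gata3 has 2 and 1 FPKM, and Hlf is at 36 to 121 FPKM in natural helper cells and at 3 FPKM or less elsewhere.

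The response of natural helper cells to papain was asked with 2 papain and 2 naive libraries, and Irf4 had the largest difference among the members. Irf4 had 65 and 73 FPKM in papain natural helper cells, against 5 and 7 FPKM in naive ones. The groups did not overlap. The log2 difference was 3.33 ± 0.68, which did not pass limma's threshold with the spread of all groups (adjusted p = 0.0784), and did with a pseudocount of 5 (0.0175), after quantile normalization (0.0448) and in a fit of the 4 libraries alone (0.0255). Without single libraries it was 3.13 to 3.54 (adjusted p = 0.207 to 0.481). The difference in papain response between natural helper cells and basophils was itself called for Irf4 (4.15 ± 0.96 on the log2 scale, limma adjusted p = 0.04, and 0.062 with a replicate block).

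No member was called between papain and naive natural helper cells by limma, where 0.786% of all genes were (0.54% higher and 0.245% lower). At an unadjusted p under 0.05 there were 2 (Irf4 and Hhex), with no share of all genes at that threshold to set beside them. Gata3 had 201 and 229 FPKM in papain and 168 and 273 FPKM in naive natural helper cells, so the libraries overlapped (log2 difference 0.00 ± 0.60, adjusted p = 1). Its sign turned after median-ratio scaling (-0.29), after quantile normalization (-0.14) and without naive library 1 (-0.35) or papain library 2 (-0.09). Hhex had 12 and 15 FPKM in papain, against 2 and 6 FPKM in naive natural helper cells (1.65 ± 0.52, adjusted p = 0.255). Ets1 had 282 and 278 FPKM in papain, against 191 and 189 FPKM in naive cells (0.56 ± 0.26, adjusted p = 0.478). Id2 had 390 and 396 FPKM in papain, against 281 and 272 FPKM in naive cells (0.51 ± 0.48, adjusted p = 0.797). Rora (200 and 184 FPKM, against 158 and 115 FPKM in naive cells) was also higher by value without overlap of libraries, and Tcf7 (38 and 54 FPKM, against 61 and 58 FPKM) and Gfi1 (12 and 15 FPKM, against 18 and 16 FPKM) were lower by value without overlap. Nfil3 (107 and 145 FPKM in papain, against 64 and 109 FPKM in naive cells) and Bcl11b (12 and 14 FPKM, against 16 and 12 FPKM) overlapped. The median log2 difference of the 10 members was 0.51, against 0.09 for all genes.

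The 3'UTRKO library of papain natural helper cells was compared with the 2 other papain libraries, with its spread assumed like that of the other groups. Irf4 was at 26 FPKM in the 3'UTRKO library, against 65 and 73 FPKM in the others (log2 difference -1.37 ± 0.83, limma adjusted p = 0.712). Gfi1 was at 24 FPKM, against 12 and 15 FPKM (0.79 ± 0.46, adjusted p = 0.694), Nfil3 at 79 FPKM, against 107 and 145 FPKM, and Gata3 at 267 FPKM, against 201 and 229 FPKM. No member was called by limma, where 0.568% of all genes were (0.21% higher and 0.358% lower), and 0 had an unadjusted p under 0.05.

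In basophils, Hhex, Ets1 and Nfil3 fell with papain and Id2 rose. Hhex had 8 and 19 FPKM in papain, against 64 and 60 FPKM in naive basophils (log2 difference -2.23 ± 0.52, limma adjusted p = 0.0155). Ets1 had 119 and 129 FPKM in papain, against 283 and 243 FPKM in naive basophils (-1.08 ± 0.26, adjusted p = 0.0172). Nfil3 had 55 and 95 FPKM in papain, against 158 and 157 FPKM in naive basophils (-1.11 ± 0.35, adjusted p = 0.0482). For these 3 genes both papain libraries lay below both naive ones. Id2 had 180 and 81 FPKM in papain, against 66 and 23 FPKM in naive basophils (1.60 ± 0.48, adjusted p = 0.0373, and 0.0602 or 0.079 after median-ratio scaling or quantile normalization). Of the 10 members, 1 was called higher and 3 lower, where 22.1% and 3.88% of all genes were (26% in either direction). All tested genes had a median log2 difference of 0.50 in this comparison, and relative to it the values were 1.10 for Id2, -2.73 for Hhex, -1.61 for Nfil3 and -1.58 for Ets1. The Ets1 call was lost without each of the 4 libraries (adjusted p = 0.0518 to 0.066), and the others without some of them, at adjusted p up to 0.079 for Hhex, 0.217 for Nfil3 and 0.236 for Id2. A fit of the 4 libraries alone called 0 of these members, and 0 to 5 members were called without single libraries.

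Other values moved in the same basophil comparison. Of the 9 basophil markers 7 were called lower and 0 higher in papain basophils (median log2 difference -2.96), and 6 of 7 fibroblast, 6 of 8 endothelial, 4 of 6 lymphatic endothelial and 7 of 10 epithelial markers were called higher. Of the neutrophil markers 2 of 7 (median 3.19) and of the monocyte and macrophage markers 2 of 8 (median 2.45) were called higher. Of the 7 B cell markers 2 were called lower (median -1.81), and they summed to 97 and 34 FPKM in papain, against 174 and 326 FPKM in naive basophils, where library 2 held the highest sum of all libraries. Gata2 had a log2 difference of -2.08 ± 0.69 (limma adjusted p = 0.0546). The part of these markers in the values of Hhex, Ets1, Nfil3 and Id2 was not tested. Gata3 (7 and 1 FPKM in papain, against 2 and 1 FPKM in naive basophils), Bcl11b (4 and 0 FPKM, against 1 and 0 FPKM), Rora (16 and 3 FPKM, against 11 and 14 FPKM) and Tcf7 (17 and 1 FPKM, against 20 and 0 FPKM) were higher in papain library 1 than in papain library 2. The T cell marker sum and 7 of the 10 natural helper cell markers were also higher in that library (Thy1 at 59 and 9 FPKM, for example), and Areg, Il13 and Il1rl1 were lower. Without papain library 1 the differences of Gata3 and Bcl11b turned to -0.29 and -0.50, and that of Rora was called lower (-1.75, limma adjusted p = 0.0347). Without papain library 2 that of Rora turned to 0.34 and Gata3 (1.71, adjusted p = 0.0461) and Bcl11b (1.82, adjusted p = 0.0459) were called higher.

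The papain response of natural helper cells differed from that of basophils for 3 members. The difference was 3.88 ± 0.73 for Hhex (limma adjusted p = 0.018), 1.63 ± 0.36 for Ets1 (adjusted p = 0.0336) and 4.15 for Irf4, as given above. Among all genes 2.12% were called in that direction and 4.64% in the other, 6.75% in all. Ets1 was at 0.0544 with a replicate block, its call was lost without any 1 of the 8 libraries (0.0515 to 0.123), and the Hhex call was lost without naive basophil library 2, naive natural helper cell library 1 or either papain natural helper cell library (0.0549 to 0.0659). The Irf4 call was lost in every fit without 1 library except that without papain basophil library 1, and the Irf4 difference ran from 3.42 to 4.88 over these fits.

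In eosinophils the clearest change with papain was in Ets1. Ets1 had 60 and 52 FPKM in CD11c+ and 35 and 67 FPKM in CD11c- eosinophils of papain mice, against 10 and 9 FPKM in naive eosinophils. All 4 papain libraries lay above both naive ones. The log2 difference was 2.44 ± 0.26 for CD11c+ (limma adjusted p = 0.00118) and 2.24 ± 0.26 for CD11c- eosinophils (adjusted p = 0.00429), and both comparisons share the same naive libraries. Both calls held without each library in turn (adjusted p up to 0.0159 and 0.0461). Only the fit of the 4 libraries alone lost the CD11c- call (0.126).

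Of the 10 members, 2 were called higher in CD11c+ eosinophils than in naive ones (Ets1 and Rora) and 0 lower, where 9.93% and 2.2% of all genes were (12.1% in either direction). For CD11c- eosinophils it was 1 higher and 0 lower, where 1.87% and 0.372% of all genes were (2.24% in either direction). Rora, listed at 0 in both naive libraries, had 3 and 9 FPKM in CD11c+ eosinophils (limma adjusted p = 0.0271, and 0.121 with a pseudocount of 5) and 3 FPKM in each CD11c- library (adjusted p = 0.168). The Rora call was lost without either naive library or without CD11c+ library 2 (0.0991 to 0.146). Id2 (407 and 453 FPKM in CD11c+, 262 and 366 FPKM in CD11c-, against 291 and 345 FPKM in naive eosinophils) and Nfil3 (58 and 62 FPKM, 64 and 49 FPKM, against 81 and 49 FPKM) did not pass the test. Id3 rose in both gates, to 72 and 64 FPKM in CD11c+ and 34 and 37 FPKM in CD11c- eosinophils, against 1 and 3 FPKM in naive ones (limma adjusted p = 0.000506 and 0.00297). It also rose in basophils, with 57 and 76 FPKM in papain, against 9 and 6 FPKM in naive basophils (limma adjusted p = 0.00142). No member was called between CD11c+ and CD11c- eosinophils by limma, where 0.0561% of all genes were (0.0281% in each direction), and 0 had an unadjusted p under 0.05. The papain response of natural helper cells minus that of CD11c- eosinophils was called for no member by limma, where 1.21% of all genes were (0.61% higher and 0.596% lower), and 2 had an unadjusted p under 0.05 (Ets1 at -1.68 ± 0.36, adjusted p = 0.0791, and Hhex at 2.11 ± 0.73, adjusted p = 0.284). Without CD11c- library 1 the Ets1 difference was called (-2.14, adjusted p = 0.0125). Fibroblast markers were called higher in papain eosinophils, 6 of 7 in CD11c+ (median log2 difference 5.95) and 5 of 7 in CD11c- (5.10). They summed to 533 and 484 FPKM in CD11c+ and 352 and 222 FPKM in CD11c-, against 2 and 5 FPKM in naive eosinophils. In CD11c+ eosinophils 3 of 10 epithelial, 3 of 8 endothelial and 3 of 8 monocyte and macrophage markers were also called higher. Of the 7 B cell markers 0 were called by limma in either gate (3 in CD11c+ and 1 in CD11c- at an unadjusted p under 0.05), and 1 of 7 T cell markers was called higher in CD11c+ eosinophils. B cell markers summed to 148 and 158 FPKM in CD11c+, 90 and 237 FPKM in CD11c- and 50 and 38 FPKM in naive eosinophils, and the T cell sums are given above. The part of these markers in the values of Ets1, Rora and Id3 was not tested.

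**Figure D4:**
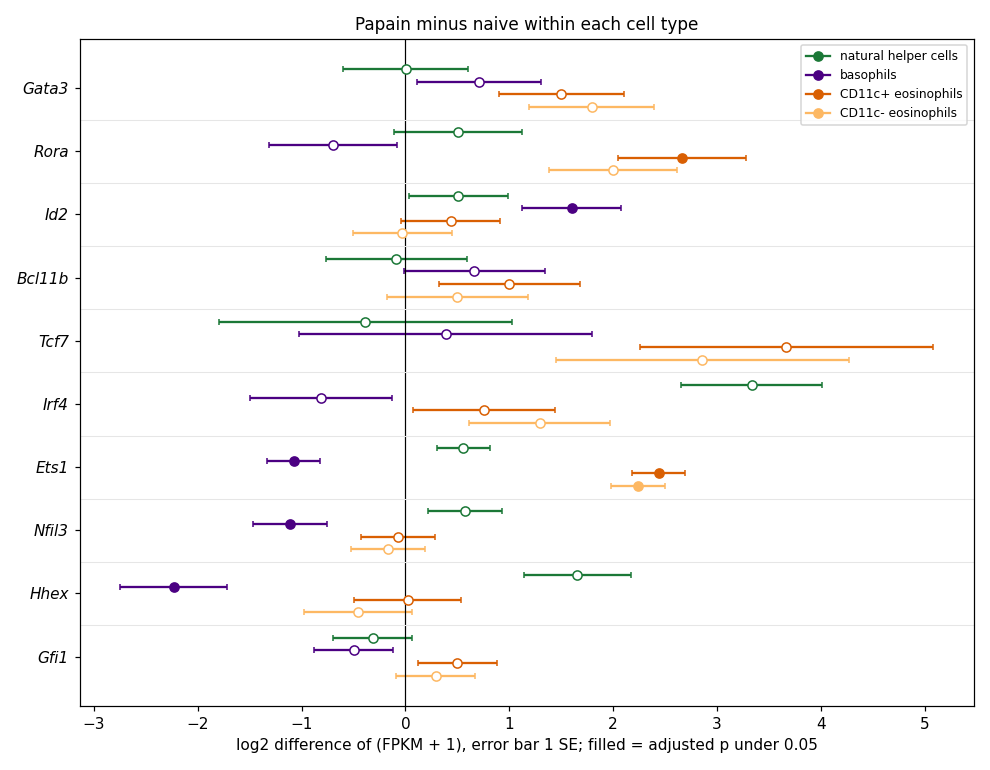
Log2 difference of (FPKM + 1) between papain and naive libraries for each gene (horizontal axis; points with 1 SE) in natural helper cells, basophils and the 2 eosinophil gates; filled points passed an adjusted p of 0.05. Irf4 is at 3.33 in natural helper cells and open, Ets1 is at 2.44 and 2.24 in eosinophils and -1.08 in basophils, all filled, and Hhex is at -2.23 in basophils.

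Outside natural helper cells, Tcf7 was high in the libraries that held T cell markers. Tcf7 had 17 FPKM in papain basophil library 1, 20 FPKM in naive basophil library 1, 18 and 16 FPKM in CD11c+ eosinophils and 20 FPKM in CD11c- library 2. The 7 T cell markers summed to 128, 64, 83, 81 and 90 FPKM in those libraries. In the 5 others Tcf7 had 0 to 4 FPKM and the markers summed to 1 to 17 FPKM. The T cell markers also stood at 138 to 258 FPKM in natural helper cells, which were sorted as lineage-negative, with Cd3g the highest of them at 78 FPKM in the 3'UTRKO library, 92 and 100 FPKM in papain and 115 and 131 FPKM in naive cells. Cd4 had 4 to 13 FPKM in natural helper cells, and Cd5 4 to 7 FPKM. The part of T cells in the Tcf7 values was not tested.

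**Figure D5:**
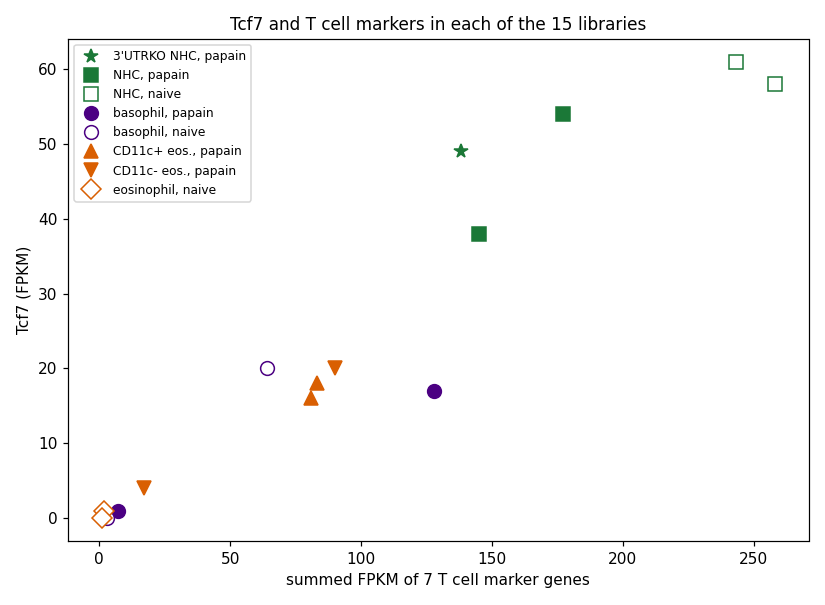
Tcf7 (vertical axis, FPKM) against the summed FPKM of 7 T cell marker genes (horizontal axis) in the 15 libraries, a point each; green marks natural helper cells, purple basophils and orange eosinophils, filled papain and open naive. Basophil and eosinophil libraries with a marker sum of 17 FPKM or less have Tcf7 at 4 FPKM or less, and the 5 with a sum of 64 to 128 FPKM have 16 to 20 FPKM.

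The members varied together across the 15 libraries to different degrees, which is given as a description, since the libraries share 3 cell types. Pearson's r of the log2 values was 0.97 for Gata3 with Bcl11b, 0.95 for Gata3 with Gfi1, 0.95 for Rora with Gfi1 and 0.94 for Gata3 with Rora. Hhex ran opposite to Id2 (-0.72), and so did Nfil3 (-0.57). Among 15 libraries the genes most like Gata3 were Xlr4a, Xlr4c and Bmp7 (0.99 each). Xlr4a and Xlr4c are near-identical copies whose reads may be shared. Those most like Bcl11b were Il27ra, Tnfsf11 and Cd96 (0.99, 0.98 and 0.98), and those most like Gfi1 were Bcl2, Il9r and Zc3hav1 (0.98 each). Rora was most like Acsbg1, Ppp1r16b and Sytl2 (0.98, 0.98 and 0.97). Tcf7 was most like the T cell receptor component Cd3e (0.96), then Cep57 and Pop5, and Irf4 most like the integrin Itgae (0.92), then the chemokine Xcl1 and Csnk1g3. Id2 was most like Pitpnm1, Ctbp1 and Anapc2 (0.95, 0.95 and 0.94), Nfil3 most like Dgat1, Jak2 and Fam132a (0.92, 0.87 and 0.87), and Hhex most like Thap6, Pfkp and Uck2 (0.90, 0.89 and 0.89).

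The 30 other transcription factors of innate lymphoid cells on a list gave mixed counts. Against naive basophils, 7 were called higher in naive natural helper cells and 6 lower (13.6% and 6.96% of all genes), and against naive eosinophils 8 higher and 5 lower (16.5% and 11.6% of all genes). The largest rises against naive basophils were the lipid-sensing nuclear receptor Pparg (25 and 48 FPKM in naive natural helper cells, against 1 and 2 FPKM in naive basophils), Maf (33 and 19 FPKM, against 3 FPKM in each) and Tox, a factor of innate lymphoid progenitors (9 and 10 FPKM, against 2 and 0 FPKM). The largest falls were Zeb2 (2 and 1 FPKM, against 41 and 32 FPKM), Stat5a (16 and 10 FPKM, against 83 and 54 FPKM) and Stat6 (37 and 35 FPKM, against 93 and 87 FPKM). Ahr, a receptor for environmental ligands, was low in naive natural helper cells (6 and 4 FPKM) and high in naive eosinophils (47 and 60 FPKM; log2 difference -3.19 ± 0.30, limma adjusted p = 0.000106). After papain, 8 were higher and 0 lower in natural helper cells than in basophils (7.18% and 12.6% of all genes), among them Tox (20 and 18 FPKM, against 2 and 0 FPKM), Ikzf3 (128 and 108 FPKM, against 40 and 4 FPKM) and Runx3 (28 and 34 FPKM, against 7 and 1 FPKM). Against CD11c- eosinophils of papain mice, 9 were higher and 5 lower (8.93% and 7.67% of all genes). The largest rises there were Pparg (log2 difference 4.13), Tox (2.82) and Stat5a (1.91), and the largest falls Ahr (-2.39), Klf2 (-1.95) and Zbtb7b (-1.55). Between papain and naive natural helper cells 0 of 30 were called by limma (0.786% of all genes). At an unadjusted p under 0.05 there were 9. The 0.786% is a share of adjusted calls, so this count of 9 has no share of all genes beside it and cannot be read as an excess. In basophils 2 were called higher and 4 lower with papain (22.1% and 3.88% of all genes), the largest falls being Nfkb1 (-1.14 ± 0.22), Nfatc1 (-1.08 ± 0.23) and Stat6 (-0.94 ± 0.15), and the rises Zbtb16 (14 and 3 FPKM in papain, against 1 and 0 FPKM in naive basophils) and Zbtb7b (9 FPKM in each, against 4 and 2 FPKM). In eosinophils Stat6, the signal transducer of IL-4 and IL-13, was lower in CD11c+ (72 and 62 FPKM) and CD11c- libraries (84 and 76 FPKM) than in naive ones (183 and 144 FPKM; limma adjusted p = 0.002 and 0.0122).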

How the data were processed

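Libraries were made from 10 ng of poly(A)-selected RNA, per the labels' protocols. The submitters' processing notes list TopHat 1.4.0, Cufflinks 1.3.0 and the mm9 build. The deposited table gives a score per gene symbol and library, read here, from the values and the tools listed, as FPKM that the authors rounded to whole numbers. Rounding leaves low values coarse, and depth cannot be recovered. Values of a library summed to 374841 to 570208. Rows of microRNA and other small RNA genes held 6.48 to 25.4% of that sum, and their part in the values of other genes was not tested. Digit-grouping commas were removed from 1008 cells, and 3 cells next to 0 were set to 0. Genes at 1 or more in at least 2 libraries were kept (14257, all 10 members among them). They were fitted as log2(FPKM + 1) in limma 3.58.1 (R 4.3.3) with a coefficient per group over all 15 libraries, without further scaling. Tests were two-sided, and p-values were adjusted by Benjamini-Hochberg over all genes of a comparison (threshold 0.05). Where a count at an unadjusted p under 0.05 is given, the share of all genes at that threshold is not given beside it. Such a count cannot be read as more or fewer than among all genes. Differences on this scale understate low genes and stand with their standard error. There were 13 comparisons, with alternatives of pseudocount, filter, scaling, groups in the fit, replicate block and single libraries left out. The fit was tested on simulated data. Members, lists and motifs were chosen with earlier results of these data known. All members are named. Of the relatives and the other factors, up to 3 called genes in each direction with a group mean of 5 FPKM or more are named, or relatives beside their member, and for likeness the 3 genes of highest correlation (for Ets1 not reported here). The 3'UTRKO label could not be checked, since its target is not given.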

Additional observations from a re-analysis of the deposited data

Results flagged for a closer look

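A difference in papain response between 2 cell types was called for 3 members, all between natural helper cells and basophils. The response of natural helper cells minus that of basophils was 4.15 for Irf4, 3.88 for Hhex and 1.63 for Ets1 on the log2 scale (limma adjusted p = 0.04, 0.018 and 0.0336). For Hhex and Ets1 the papain libraries were above the naive ones in natural helper cells and below them in basophils. Groups of 1 or 2 libraries are too small for a search for single outlying samples. Basophil markers were lower and stromal markers higher in the same papain basophil libraries, and their part in these differences was not tested.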

How the results depend on the processing

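Among 130 pairs of a member and a comparison, 40 were called, 15 of them under every alternative, 22 in every fit without 1 library, and none of the 40 changed sign. Of the others, 16 were called under some alternative and 74 under none, of which 30 changed sign. Fitting only the groups compared, which leaves fewer samples, moved most: 19 calls were lost and 5 gained. Genes called then were 1714 (2935 in the fit of all groups) for naive natural helper cells against naive basophils, 887 (2813) for papain natural helper cells against papain basophils, 3606 (2366) against CD11c- eosinophils, 542 (112) for papain in natural helper cells, 490 (3705) in basophils, 1114 (320) in CD11c- and 1038 (1730) in CD11c+ eosinophils, 5 (8) between the gates, 2308 (81) for 3'UTRKO, and 570 (963) and 819 (172) for the response differences from basophils and eosinophils. Members called were 3 (6), 3 (5) for naive basophils against naive eosinophils, 1 (7) for papain cells against basophils, 1 (0) for papain in natural helper cells, 0 (4) in basophils, 2 (1) in CD11c- eosinophils, and 1 (3) and 1 (0) for the response differences. A pseudocount of 5 gave 1 member for papain in natural helper cells, 184 genes for CD11c- and 1 member for CD11c+ eosinophils, 3 genes between the gates and 114 for the response difference from eosinophils. Between the gates, 14 genes were called with a pseudocount of 0.5, 13 without a filter, 1 after median-ratio scaling, 1 after quantile normalization and 2 with a replicate block. 3'UTRKO gave 215 genes without a filter, 52 with median-ratio scaling and 50 with quantiles. Papain in natural helper cells gave 52 genes after median-ratio scaling and 56 genes with 1 member (Irf4) after quantile normalization, and Gata3 turned to -0.29 and -0.14. The response difference from eosinophils gave 81 and 76 genes under those scalings. The cause of these shifts was not tested.

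The scaling moved the share of calls that were higher, given here unscaled, then with median ratios, then with quantiles. It was 66.2, 49.1 and 49.9% for naive natural helper cells against naive basophils, 37.9, 54.5 and 51.3% for naive basophils against naive eosinophils, 36.4, 28 and 50.7% for papain natural helper cells against papain basophils, 68.8, 38.5 and 53.6% for papain in natural helper cells, 85.1, 65.5 and 45.4% in basophils, 83.4, 72.9 and 73.5% in CD11c- and 81.9, 56.7 and 51.2% in CD11c+ eosinophils. It was 37, 48.1 and 46% for 3'UTRKO, 31.4, 37.5 and 57.1% for the response difference from basophils, and 50.6, 38.3 and 42.1% for that from eosinophils. Between the gates it was 50, 100 and 100%, of only 8, 1 and 1 called genes, too few to show a shift.

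Same-numbered libraries did not deviate together (r of -0.15 to 0.12 over 21 pairs of groups, 1 over 0.1). The labels do not say whether same numbers share animals or a day. These correlations cannot decide it, since a small shared effect could go unseen. With a replicate block 4 calls were lost and 1 gained, the response difference from basophils gave 1 member and that from eosinophils 105 genes.

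Without single libraries, genes called ran from 1363 to 2701 for naive natural helper cells against naive basophils (5 to 7 members), 2419 to 2809 against naive eosinophils (5 to 6), 929 to 1819 for naive basophils against naive eosinophils (3 in each), 698 to 3773 for papain natural helper cells against papain basophils (3 to 7) and 1076 to 1533 against CD11c- eosinophils (4 to 6). They ran from 52 to 126 for papain in natural helper cells (0 members), 1228 to 3513 in basophils (0 to 5), 44 to 161 in CD11c- (1) and 371 to 2070 in CD11c+ eosinophils (1 to 2), 2 to 498 between the gates (0), 25 to 30 for 3'UTRKO (0), 288 to 1691 for the response difference from basophils (0 to 2) and 12 to 152 for that from eosinophils (0 to 1). The sign of uncalled members turned: in natural helper cells Gata3 ran from -0.35 to 0.35 and Bcl11b from -0.28 to 0.10, and in basophils Gata3 from -0.29 to 1.71, Bcl11b from -0.50 to 1.82 and Rora from -1.75 to 0.34. Rounded values without depth limit what can be said of members below about 5 FPKM.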
